A study of Mus musculus with 7 samples.

Results

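The subject is the set of nuclear genes that encode subunits of the mitochondrial respiratory chain, described complex by complex in sorted gut macrophages. Members were chosen by name alone: the Nduf genes of classes a, b, c, s and v, the 4 Sdh genes, the Uqcr genes and Cyc1, the numbered Cox subunits and the Atp5 genes. The name pattern matched 78 rows of the table, and with a pseudogene-type name (Atp5l2-ps) left out it gave 77 of 17209 listed genes. They were 36 genes of complex I, 4 of complex II, 9 of complex III, 11 of complex IV and 17 of complex V. Every library held RNA of CX3CR1-GFP+ muscularis macrophages sorted from the peeled muscle layer of the small intestine of C57BL6/J mice. Sham surgery gave 4 libraries (Sham 1 to Sham 4) and pMCAO surgery, which the series title calls stroke, gave 3 (pMCAO 1 to pMCAO 3), all at 24 h. Age, sex and animals per library are not stated in the labels, and pMCAO 3 is described as a pool, so p-values measure only the spread between these samples, which may be technical. The GFP reports activity of the Cx3cr1 locus, so the gate is set by a receptor gene and not by a macrophage-only surface protein.

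The respiratory chain turns the energy of NADH and succinate into a proton gradient across the inner mitochondrial membrane, which ATP synthase spends to make ATP. Complex I takes electrons from NADH, complex II from succinate, complex III passes them from ubiquinol to cytochrome c, complex IV hands them to oxygen, and complex V is the ATP synthase itself. Complexes I, III, IV and V mix subunits encoded in mitochondrial DNA with nuclear ones, whereas all of complex II is encoded in the nucleus. In macrophages the balance between this chain and glycolysis is known to shift with activation, and complexes I and II are also sites of signalling through reactive oxygen species and succinate.

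Total counts were 18.9 to 34.4 M in the sham libraries and 12.7 to 21.7 M in the pMCAO libraries. Of 10 pan-macrophage markers all were listed, and the gate gene Cx3cr1 stood at 207 to 299 CPM (a gene's share of the library's counts, on the usual CPM scale after edgeR's TMM scaling) in sham and 137 to 222 CPM in pMCAO libraries. Of those 10 markers 9 were lower in pMCAO libraries, with a median log2 change of -0.29 (7 of 10 and -0.23 without pMCAO 3), and 3 were lower and 1 higher at an unadjusted p under 0.05. EdgeR called 0 of them, DESeq2 called Fcgr1 and limma-voom with sample quality weights Cx3cr1 and Fcgr1, all lower. Their summed level was 7176 to 8780 CPM in sham and 6910 to 7464 CPM in pMCAO libraries. A score here is the average log2 CPM of a gene list in 1 library, set to 0 at the sham mean. The score of 10 fibroblast markers, all of them listed, ran from -0.32 to 0.56 in sham and from 0.58 to 1.83 in pMCAO libraries, and their summed level from 606 to 1368 and from 987 to 2261 CPM. Within that sum 1 gene, Fn1, was at 480 to 1249 CPM in sham and 429 to 2084 CPM in pMCAO libraries. The score of 10 blood endothelial markers, also all listed, ran from -0.58 to 0.96 and from 0.83 to 1.35, with summed levels of 132 to 356 and 407 to 564 CPM. Mitochondrial rRNA took 2.42% to 5.82% of the counts in sham and 8.26% to 12.6% in pMCAO libraries. pMCAO 3 stood apart for the respiratory chain: it held the lowest value for 66 of the 77 members, against 3470 of all 17209 genes. The number of lower genes and the median of each list below are given with and without it.

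With all 7 libraries, respiratory chain genes were mostly lower after pMCAO, by a modest amount, in all 5 complexes. For none of them did the difference pass the edgeR test. The log2 change (pMCAO minus sham) was negative for 73 of the 77 members (94.8%), against 51.4% of all genes, with a median of -0.42 beside -0.02 for all genes. Much of this rests on pMCAO 3: without it 59 of the 77 were lower, the median was -0.15, and that of complex IV was -0.01. By the edgeR quasi-likelihood test with Benjamini-Hochberg adjustment over all genes, 0 members passed an adjusted p of 0.05, where 0.0988% of all genes did (0.0291% lower and 0.0697% higher). At an unadjusted p under 0.05 there were 15 lower members (19.5%) and 0 higher ones, where 6.47% of all genes were lower and 6.97% higher at that level. Limma-voom also called 0 members, where 0.0639% of all genes were called lower. DESeq2 called 5 members, all lower, among them Ndufa9, Ndufs6, Atp5d and Atp5e, where 1.24% of all genes were called lower. Limma-voom with sample quality weights called 6, all lower, among them Ndufa9, Ndufa7, Uqcr11, Atp5d and Atp5o, where 1.55% were. That fit weighted pMCAO 1 at 2.99, pMCAO 2 at 0.4 and pMCAO 3 at 0.568. Its pMCAO side thus rests mostly on pMCAO 1, for every gene and list it called. In bulk RNA, fewer cells of a type and less RNA per cell cannot be told apart.

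The summed level of the 77 genes was 4140, 4797, 3849 and 4230 CPM in Sham 1 to Sham 4 and 3916, 3860 and 2154 CPM in pMCAO 1 to pMCAO 3. pMCAO 1 and pMCAO 2 thus lay inside the sham range, near its lower end, and pMCAO 3 lay far below it. Over groups this was 4254 ± 397 CPM (SD, n = 4) in sham and 3310 ± 1001 CPM (SD, n = 3) in pMCAO libraries, and the groups overlapped. On the log2 scale the score of all members was -0.16 to 0.19 in sham libraries, -0.23 in pMCAO 1, -0.15 in pMCAO 2 and -1.12 in pMCAO 3. The pan-macrophage score was -0.27 to 0.11 in sham libraries and -0.18, -0.28 and -0.36 in pMCAO 1 to pMCAO 3. In the same order the fibroblast score was 1.83, 0.58 and 1.56, the endothelial score 1.35, 1.09 and 0.83, and the mitochondrial rRNA share 12.6%, 8.26% and 8.84%. The part of the macrophage markers and of the rRNA share in the result was not tested. With the joint stromal score of the fibroblast and endothelial markers as a covariate the median of the members was -0.65, with 74 of 77 lower and 0 called. That joint score was -0.45 to 0.76 in sham and 0.83 to 1.59 in pMCAO libraries, without overlap. Its part and that of pMCAO thus cannot be told apart in this fit.

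**Figure D1:**
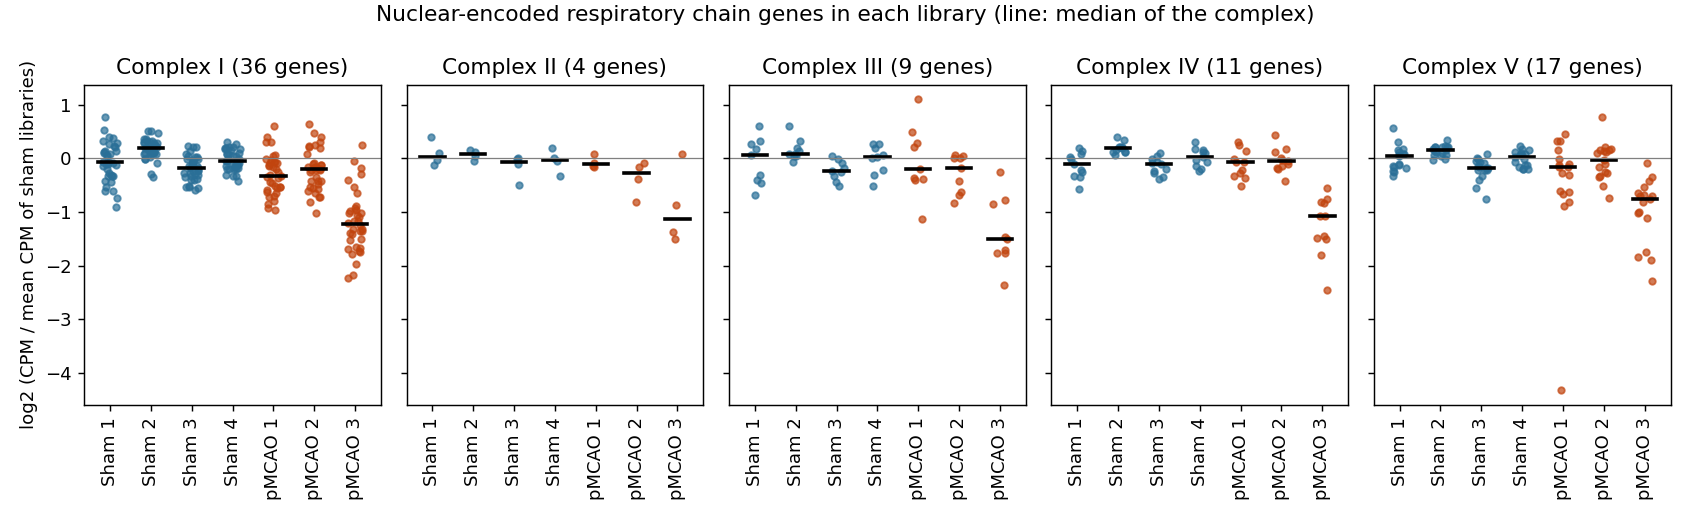
Each point is 1 gene in 1 library, as log2 of its CPM over its mean CPM in the 4 sham libraries, with 1 panel per complex and a line at the median of the complex. The medians of pMCAO 1 and pMCAO 2 sit near 0 or slightly under it, those of pMCAO 3 sit lowest in each panel, and the lowest point is Atp5g2 in pMCAO 1.

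Without pMCAO 3, 59 of the 77 members were lower and the median was -0.15; 10 were lower at an unadjusted p under 0.05, where 5.17% of all genes were. By complex, 30 of 36, 3 of 4, 6 of 9, 8 of 11 and 12 of 17 members of complexes I to V were lower in that fit. The medians were -0.25 for complex I, -0.21 for complex II, -0.11 for complex III, -0.01 for complex IV and -0.14 for complex V. With all 7 libraries they were -0.51, -0.45, -0.47, -0.36 and -0.27. With all libraries the most negative median was thus that of complex I and the least negative that of complex V. For each of the 10 pairs of complexes the difference of their scores was taken in each library, and 0 of the 10 differences separated the sham from the pMCAO libraries. Complex I was the only complex whose score did not overlap between groups, at -0.15 to 0.20 in sham libraries and at -0.27, -0.19 and -1.14 in pMCAO 1 to pMCAO 3. The gap between the groups was narrow, since pMCAO 2 lay just under Sham 3.

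**Figure D2:**
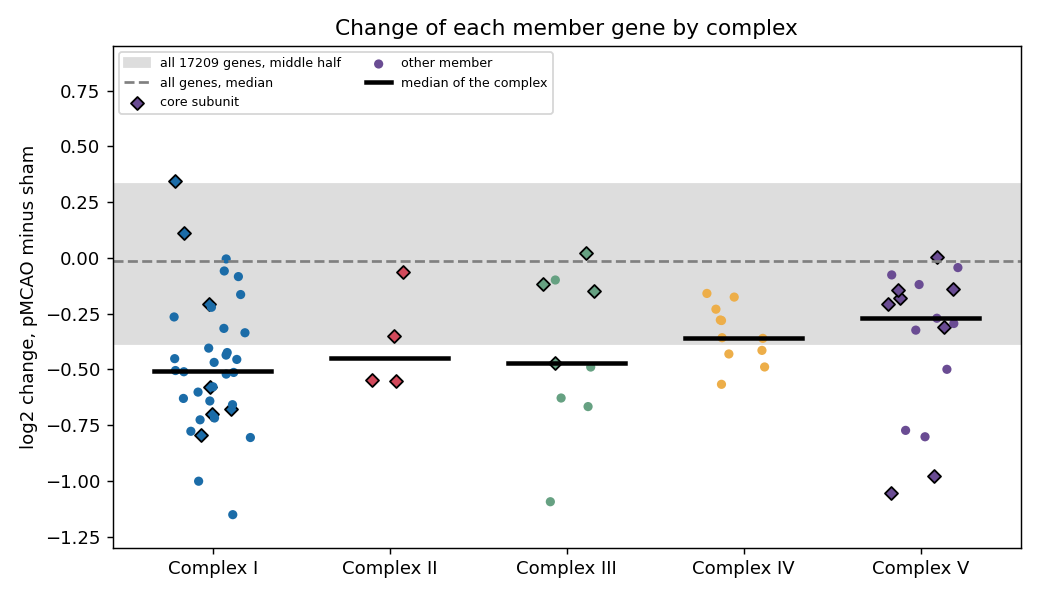
Each point is the log2 change (pMCAO minus sham) of 1 member, by complex, with diamonds for core subunits, bars at the median of each complex, and a grey band for the middle 50% of all 17209 genes around their dashed median. Members lie mostly under the dashed line, with Ndufs1 the highest point at 0.34 and Ndufs6 the lowest at -1.15.

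Core subunits, most of which carry cofactors or form the catalytic and rotary parts, were compared with the other members. The core list also held the scaffold or structural proteins Ndufs3, Uqcrc1 and Uqcrc2. Of 23 core members 19 were lower, with a median of -0.21, and of 54 other members 54 were lower, with a median of -0.44. Without pMCAO 3, 15 of the 23 core members (median -0.09) and 44 of the 54 others (-0.17) were lower. The order was reversed within complex I, with all libraries, at medians of -0.58 for 7 core genes and -0.51 for 29 others. Within complex V the medians were -0.19 for 8 core genes and -0.29 for 9 others. All 4 complex II genes counted as core and all 11 complex IV genes as other, so the pooled medians also mix complexes. With all libraries the 4 members whose change was above 0 were all core subunits: Ndufs1 (0.34), Ndufv2 (0.11), Uqcrc1 (0.02) and Atp5g1 (0.00). The median exon length of the 23 core members was 2181 bases, against 1316 bases for the 54 others. The score of the core members was -0.19 to 0.16 in sham libraries and -0.24, -0.13 and -0.93 in pMCAO 1 to pMCAO 3, which overlapped. The score of the other members was -0.15 to 0.20 and -0.22, -0.15 and -1.21, where pMCAO 2 lay just under the lowest sham library.

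Promoter sequence was looked up for the members because these genes are known as a group driven by a shared set of factors: the ETS factor GABP (also called NRF-2), NRF1 and YY1. RefSeq promoter windows on GRCm38.p6, from 250 bases before to 50 after the start, were matched for 63 of the 77 members. The letters searched on both strands were CCGGAAG for ETS, GCATGCG for NRF1 and AGATGGC for YY1. The NRF1 letters and their reverse complement overlap each other in CGCATGCG. ETS letters were in the windows of 16 members (25.4%) and of 18.9% of 10554 listed genes, NRF1 letters in 11 (17.5%) and 6.93%, and YY1 letters in 9 (14.3%) and 8.27%. At least 1 of these was found in 29 members (46%) and in 30.2% of all genes. Members with and without the ETS letters had median log2 changes of -0.56 (16 genes) and -0.41 (47 genes), those with and without NRF1 letters -0.35 and -0.43, and those with and without YY1 letters -0.42 and -0.43. Without pMCAO 3 these medians were -0.28 and -0.14, -0.16 and -0.16, and -0.19 and -0.16. These are descriptions of letters in a window, and a match is not a measured site.

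For each complex the window of the matched member with the smallest p is shown, to set the sequence beside the genes described below; capitals mark the letters found. All are on the minus strand and are printed 5′ to 3′ along the gene: Ndufa9 at chr6:126849095-126849394, Sdhd at chr9:50603800-50604099, Uqcrh at chr4:116075021-116075320, Cox6a1 at chr5:115348909-115349208 and Atp5e at chr2:174464052-174464351. Ndufa9 holds the YY1 letters just after its start, Cox6a1 holds the overlapping NRF1 letters and an ETS match, and the other windows hold an ETS match read on the opposite strand.
Ndufa9: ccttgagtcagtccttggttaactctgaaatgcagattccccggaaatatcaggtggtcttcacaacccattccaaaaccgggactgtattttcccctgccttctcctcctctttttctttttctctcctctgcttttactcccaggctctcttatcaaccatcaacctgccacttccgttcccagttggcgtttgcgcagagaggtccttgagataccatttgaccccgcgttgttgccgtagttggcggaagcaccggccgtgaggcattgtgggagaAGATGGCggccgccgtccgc
Sdhd: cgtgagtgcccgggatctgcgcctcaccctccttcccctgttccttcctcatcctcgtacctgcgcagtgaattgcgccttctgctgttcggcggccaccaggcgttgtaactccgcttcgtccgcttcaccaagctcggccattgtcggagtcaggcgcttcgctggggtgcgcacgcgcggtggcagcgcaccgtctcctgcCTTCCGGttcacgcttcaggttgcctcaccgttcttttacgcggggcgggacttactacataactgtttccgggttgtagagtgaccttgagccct
Uqcrh: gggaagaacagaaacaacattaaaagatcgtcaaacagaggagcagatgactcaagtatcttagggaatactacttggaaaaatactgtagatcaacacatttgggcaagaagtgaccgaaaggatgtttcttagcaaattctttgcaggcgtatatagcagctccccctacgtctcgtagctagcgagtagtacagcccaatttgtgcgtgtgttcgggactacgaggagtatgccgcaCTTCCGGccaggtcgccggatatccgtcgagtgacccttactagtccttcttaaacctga
Cox6a1: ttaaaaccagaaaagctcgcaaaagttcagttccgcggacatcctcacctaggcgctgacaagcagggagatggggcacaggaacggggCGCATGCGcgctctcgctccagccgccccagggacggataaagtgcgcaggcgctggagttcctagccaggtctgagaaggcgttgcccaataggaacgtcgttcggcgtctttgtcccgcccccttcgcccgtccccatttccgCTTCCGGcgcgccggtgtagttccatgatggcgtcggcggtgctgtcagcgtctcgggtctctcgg
Atp5e: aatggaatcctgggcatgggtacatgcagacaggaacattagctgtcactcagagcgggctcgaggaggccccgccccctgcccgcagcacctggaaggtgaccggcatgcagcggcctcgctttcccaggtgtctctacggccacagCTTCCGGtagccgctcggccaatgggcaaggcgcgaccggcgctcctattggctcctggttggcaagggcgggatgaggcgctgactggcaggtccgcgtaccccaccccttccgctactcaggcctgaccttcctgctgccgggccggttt

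Complex I showed the most negative median, -0.51, with 34 of 36 members lower (30 of 36 without pMCAO 3); edgeR called 0, and 8 were lower and 0 higher at an unadjusted p under 0.05. Genes called by DESeq2 here included Ndufa9 and Ndufs6. Members with non-overlapping groups included Ndufs6, Ndufs7, Ndufa7 and Ndufa9, which were lower, and Ndufs1, which was higher. Over all complexes 11 members (14.3%) were lower without overlap, where 6.58% of all genes were, and 1 was higher, where 5.99% of all genes were. Without pMCAO 3 those counts were 13 (beside 10.6% of all genes) and 1 (beside 9.32%).

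Of the core subunits of the ubiquinone-binding module of complex I, Ndufs7, an iron-sulfur protein (ENSMUSG00000020153, chromosome 10, 80249121 to 80256794 of GRCm38), stood at 34.7, 42.4, 33.7 and 38.4 CPM in Sham 1 to Sham 4 and at 21.5, 33.2 and 15.03 CPM in pMCAO 1 to pMCAO 3. Every pMCAO library lay below every sham library, though pMCAO 2 came close to Sham 3. The log2 change was -0.68 (SE 0.27) and its adjusted p by the edgeR test was 0.294. Ndufs8, a further iron-sulfur protein of the module, and Ndufs3, part of its scaffold, were lower with overlap (-0.70 and -0.58), at adjusted p of 0.372 and 0.407 by edgeR.

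The NADH-binding module held the 2 members of complex I with a change above 0, Ndufs1 and Ndufv2. Ndufs1, its large iron-sulfur subunit (ENSMUSG00000025968, chromosome 1, 63143596 to 63176833), stood at 47.5, 49.2, 39.1 and 48.9 CPM in sham and 57.2, 63.8 and 55.1 CPM in pMCAO libraries. All 3 pMCAO values were above all 4 sham values, and pMCAO 3 was no exception here. The log2 change was 0.34 (SE 0.19, adjusted p = 0.442 by edgeR). Exons of Ndufs1 share 489 bases with the antisense transcript Ino80dos, and since the strand setting of the counting is not given, their reads cannot be told apart there. Ndufv2, another iron-sulfur subunit of that module, was at 42.3 ± 9.16 CPM (SD, n = 4) and 45.6 ± 12.3 CPM (SD, n = 3), and Ndufv1, which binds NADH and FMN, at 22.7 ± 8.46 and 19.7 ± 7.19 CPM. Their groups overlapped.

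Among the accessory subunits, which surround the core and stabilise it, the most negative was Ndufs6, a zinc-binding protein of the matrix arm (ENSMUSG00000021606, chromosome 13, 73319838 to 73328542). It stood at 29.0, 42.4, 37.1 and 31.2 CPM in sham and 22.5, 17.3 and 7.46 CPM in pMCAO libraries. The groups did not overlap, and pMCAO 3 was again the lowest library by a wide margin. The log2 change was -1.15 (SE 0.33, adjusted p = 0.174 by edgeR). Ndufs6 has a near-identical processed pseudogene, Ndufs6b, that matches 287 bases of its transcript at 95.8% identity.

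Ndufa9, an accessory subunit near the joint of the matrix and membrane arms (ENSMUSG00000000399, chromosome 6, 126821721 to 126849136), stood at 18.5, 29.8, 32.6 and 32.0 CPM in sham and 14.9, 16.1 and 11.3 CPM in pMCAO libraries. The 3 pMCAO values lay close together, all under the lowest sham value, and pMCAO 3 was not far from the other 2. Its log2 change was -1.002 (SE 0.28, adjusted p = 0.158 by edgeR), and it had no near-identical locus at the limits used. Ndufa7, a further accessory subunit of the matrix arm, was at 59.2 ± 9.33 CPM (SD, n = 4) in sham and 33.8 ± 9.92 CPM (SD, n = 3) in pMCAO libraries, without overlap (log2 change -0.81).

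The remaining complex I genes ranged from -0.78 (Ndufa13, the accessory subunit also known as GRIM-19, adjusted p = 0.249 by edgeR) to -0.01 (Ndufa10), and their groups overlapped. Per kilobase of exon, the highest level of complex I in sham libraries was that of Ndufc2, at 90.3 CPM per kilobase, and the lowest that of Ndufb2, at 3.50 CPM per kilobase; both are accessory subunits of the membrane arm. Ndufc2 differed by -0.47 and Ndufb2 by -0.08. Ndufa4, named as a complex I gene but since placed in complex IV, was at 44.4 to 94.3 CPM in sham and 91.5, 47.0 and 23.6 CPM in pMCAO 1 to pMCAO 3, so pMCAO 1 sat near the top of the sham range and pMCAO 3 below it.

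**Figure D3:**
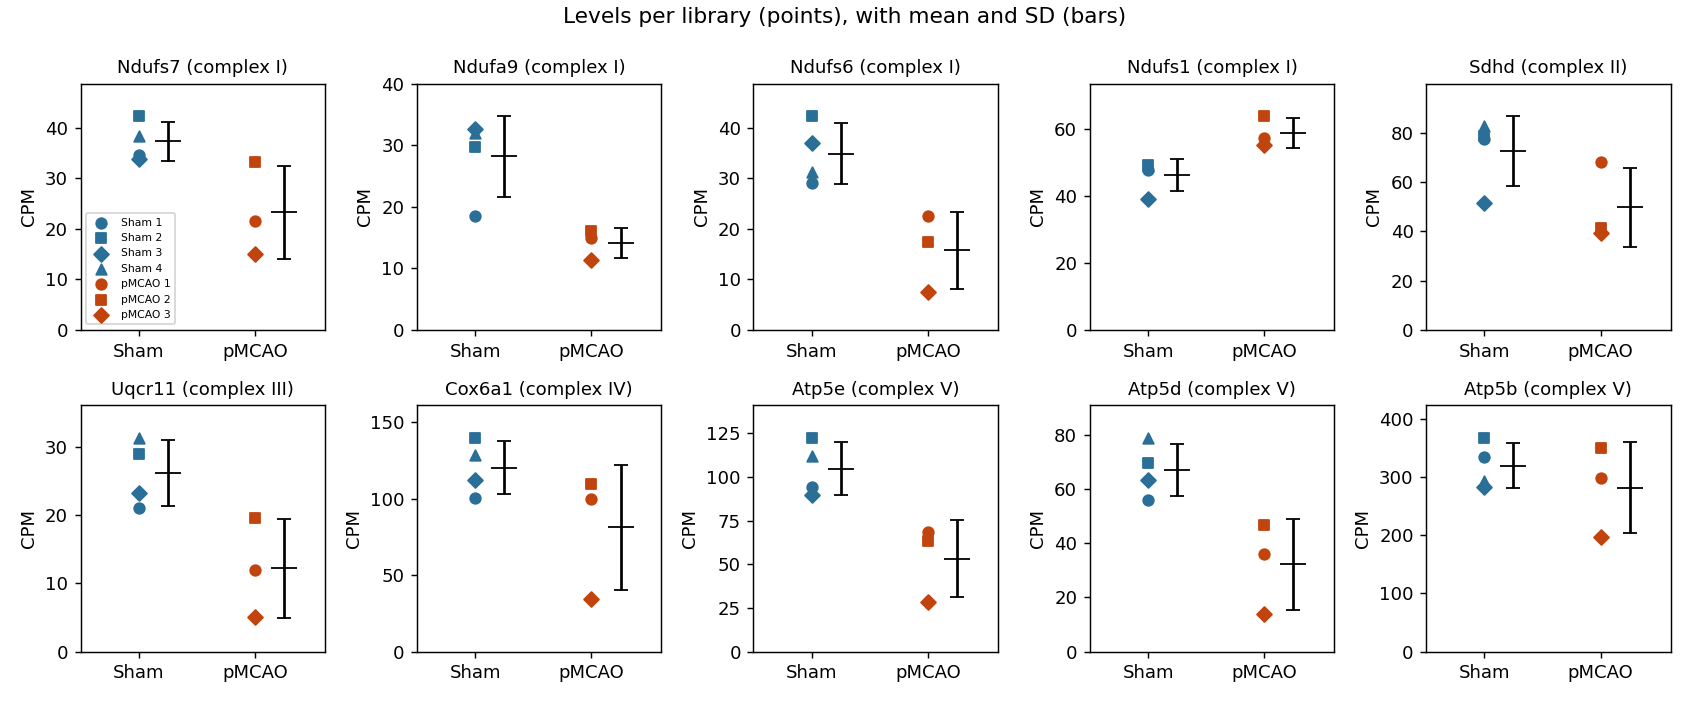
Each panel shows the CPM of 1 member in each library (symbols) with the group mean and SD (bars), 4 sham and 3 pMCAO libraries. In Ndufs7, Ndufa9, Ndufs6, Uqcr11, Atp5e and Atp5d all pMCAO points lie under all sham points, in Ndufs1 all lie above, and in Sdhd, Cox6a1 and Atp5b the groups overlap.

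Complex II, succinate dehydrogenase, is the only complex with no mitochondrially encoded subunit, and it is shared with the citric acid cycle. All 4 of its genes had a log2 change below 0 (3 of 4 without pMCAO 3), with a median of -0.45; edgeR, DESeq2 and limma-voom called 0, and 1 was lower at an unadjusted p under 0.05. Sdha, the flavoprotein that oxidises succinate (ENSMUSG00000021577, chromosome 13, 74322254 to 74350280), was the steadiest: 131.2, 139.0, 133.7 and 135.0 CPM in sham and 122.5, 121.1 and 143.2 CPM in pMCAO libraries. pMCAO 3 was the highest library for Sdha, not the lowest, and the log2 change was -0.06 (SE 0.16). Sdhb, its iron-sulfur partner, was at 55.7 to 67.4 CPM in sham and 64.6, 57.4 and 21.4 CPM in pMCAO 1 to pMCAO 3, so only pMCAO 3 left the sham range (log2 change -0.35).

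The membrane anchors of complex II, Sdhc and Sdhd, hold its ubiquinone site. Sdhd (ENSMUSG00000000171, chromosome 9, 50596357 to 50603812) stood at 77.4, 78.7, 51.4 and 82.8 CPM in sham and 68.3, 41.5 and 39.5 CPM in pMCAO libraries. pMCAO 1 lay inside the sham range and the other 2 below it. The log2 change was -0.55 (SE 0.24, adjusted p = 0.345 by edgeR). Sdhc was at 63.0 ± 14.02 CPM (SD, n = 4) in sham and 43.1 ± 16.6 CPM (SD, n = 3) in pMCAO libraries, with overlap (log2 change -0.55, SE 0.27). Per kilobase of exon, Sdhd was the highest of the complex in sham libraries, at 59.0 CPM per kilobase, and Sdhc the lowest, at 19.4.

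In complex III, the cytochrome bc1 complex, 8 of 9 genes had a log2 change below 0 (6 of 9 without pMCAO 3); edgeR and DESeq2 called 0, quality weights called Uqcr11, and 2 were lower at an unadjusted p under 0.05. By median the accessory subunits had the more negative changes: the 5 accessory genes had a median of -0.63 and the 4 core genes one of -0.13 (-0.28 and 0.02 without pMCAO 3). The split was not uniform, since the accessory gene Uqcrb was at -0.10 and the core gene Cyc1 at -0.47. Uqcr11, a small accessory subunit (ENSMUSG00000020163, chromosome 10, 80402997 to 80406830), stood at 20.99, 28.9, 23.2 and 31.4 CPM in sham and 11.96, 19.6 and 5.10 CPM in pMCAO libraries. The groups did not overlap, though pMCAO 2 came close to Sham 1. The log2 change was -1.09 (SE 0.38, adjusted p = 0.239 by edgeR), and 2 loci nearly identical to part of its transcript exist, the longest match being 171 bases to Gm16418.

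Uqcrh, the acidic hinge protein that helps cytochrome c dock (ENSMUSG00000063882, chromosome 4, 116066965 to 116075071), had the smallest p of complex III. It stood at 60.5, 85.4, 85.6 and 100.2 CPM in sham and 64.7, 46.4 and 45.8 CPM in pMCAO libraries. Only pMCAO 1 was inside the sham range. Its log2 change was -0.67 (SE 0.22, adjusted p = 0.211 by edgeR). Uqcr10, another small accessory protein, had the highest level of the complex per kilobase in sham libraries (146.6 CPM per kilobase) and differed by -0.63 (SE 0.31, adjusted p = 0.401 by edgeR).

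The core of complex III was also mixed. Uqcrfs1, the Rieske iron-sulfur protein, was at 49.7 ± 19.1 CPM (SD, n = 4) and 45.9 ± 14.8 CPM (SD, n = 3), and Uqcrc2, a structural core protein, at 72.5 ± 13.4 and 65.5 ± 6.38 CPM. Cyc1, the cytochrome c1 haem protein, was at 23.4 to 39.9 CPM in sham and 40.4, 21.6 and 10.2 CPM in pMCAO 1 to pMCAO 3, which spread wider than the sham libraries. Uqcrc1, the other structural core protein (ENSMUSG00000025651, chromosome 9, 108936633 to 108949623), spread most: 67.3, 63.0, 47.7 and 60.6 CPM in sham and 127.7, 37.2 and 17.6 CPM in pMCAO libraries. pMCAO 1 lay above every sham library and the other 2 below every sham library, which leaves a log2 change of 0.02 (SE 0.58). Uqcrc1 was also the lowest of the complex per kilobase in sham libraries, at 14.4 CPM per kilobase.

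Complex IV, cytochrome c oxidase, has its catalytic centre in mitochondrially encoded subunits, so its nuclear genes encode the surrounding and regulatory ones. All 11 had a log2 change below 0, from -0.57 to -0.16. Without pMCAO 3 this held for 8 of the 11, and for 5 of the 11 when each library was also levelled on GC content and exon length. None was called by edgeR, DESeq2 or limma-voom, 0 reached an unadjusted p under 0.05, and all 11 had their lowest value in pMCAO 3. Cox6a1, the general isoform of a regulatory subunit (ENSMUSG00000041697, chromosome 5, 115345642 to 115348981), stood at 100.4, 140.0, 112.1 and 128.8 CPM in sham and 99.8, 109.3 and 34.5 CPM in pMCAO libraries. pMCAO 2 lay inside the sham range, pMCAO 1 just under it and pMCAO 3 far under it. The log2 change was -0.57 (SE 0.31, adjusted p = 0.444 by edgeR). Per kilobase of exon, merged over all annotated transcripts, Cox6a1 was the highest of all members in sham libraries, at 171.4 CPM per kilobase. Ranks by transcript length can differ: Atp5e has 1756 bases of merged exon and a transcript of 421 bases, and Cox6a1 has 702 and 571.

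Cox8a and Cox7a2l came next by p in complex IV. Cox8a, the common isoform of the smallest subunit, was at 80.6 ± 7.91 CPM (SD, n = 4) and 57.4 ± 26.02 CPM (SD, n = 3). Cox7a2l, a gene linked to supercomplexes of complexes III and IV, whose function in these mice was not examined, was at 69.5 ± 15.5 and 51.5 ± 14.4 CPM. Of subunit pairs with tissue isoforms, Cox6b1 stood at 59.9 to 81.3 CPM and its testis-type partner Cox6b2 at 3.33 to 5.68 CPM in sham libraries, or 99.6 and 3.90 CPM per kilobase on average. Cox7a2 was at 60.7 ± 8.31 and 54.3 ± 30.3 CPM, its pMCAO 2 value of 82.5 CPM above every sham library and its pMCAO 3 value of 22.3 CPM below. The muscle-type isoforms Cox6a2, Cox7a1 and Cox8b, and Cox8c, were not among the listed genes.

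In complex V, ATP synthase, 16 of 17 genes had a log2 change below 0 (12 of 17 without pMCAO 3), and the median, -0.27, was the least negative. EdgeR called 0, with 4 lower at an unadjusted p under 0.05, and DESeq2 called Atp5d and Atp5e. Its changes were uneven along the parts of the enzyme. In the catalytic head, Atp5b and Atp5a1, the beta and alpha subunits, were near the sham level in pMCAO 1 and pMCAO 2: Atp5b stood at 334.1, 367.9, 282.2 and 293.8 CPM in sham and 297.6, 350.6 and 197.2 CPM in pMCAO libraries. Only pMCAO 3 left the sham range. Atp5b differed by -0.18 (SE 0.20), Atp5a1 by -0.21 (SE 0.19) and Atp5c1, the gamma shaft, by -0.14 (SE 0.18). Atp5b had the highest level of the complex per kilobase in sham libraries, at 75.4 CPM per kilobase.

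The small subunits at the foot of the central stalk, delta and epsilon, were the most negative of complex V. Atp5e, the epsilon subunit (ENSMUSG00000016252, chromosome 2, 174461072 to 174464105), stood at 94.5, 122.6, 89.8 and 112.1 CPM in sham and 68.4, 63.1 and 28.3 CPM in pMCAO libraries. Atp5d, the delta subunit (ENSMUSG00000003072, chromosome 10, 80138632 to 80145818), stood at 56.0, 69.6, 63.3 and 78.9 CPM in sham and 36.1, 46.8 and 13.7 CPM in pMCAO libraries. For both genes every pMCAO library was below every sham library, and pMCAO 3 was again the lowest. The log2 changes were -0.98 (SE 0.27, adjusted p = 0.152 by edgeR) for Atp5e and -1.06 (SE 0.32, adjusted p = 0.192 by edgeR) for Atp5d. Their difference from the alpha, beta and gamma subunits was not tested.

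The peripheral stalk, which holds the head still while the shaft turns, was mixed. Atp5o, its top subunit (OSCP), stood at 54.6, 75.4, 72.1 and 71.4 CPM in sham and 43.1, 53.9 and 20.5 CPM in pMCAO libraries. The groups did not overlap, though pMCAO 2 came close to Sham 1. Its log2 change was -0.80 (SE 0.28, adjusted p = 0.243 by edgeR), and a processed pseudogene, Gm5436, matches 643 bases of its transcript at 97.045% identity. Atp5h, subunit d, was also lower without overlap (-0.50), whereas Atp5f1, subunit b (-0.04), and Atp5j, coupling factor 6 (-0.08), were close to the sham level. In the membrane part, Atp5k, subunit e, was lower without overlap (-0.77), and Atp5j2, subunit f (-0.32), overlapped.

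Subunit c, which forms the rotor ring, is encoded by 3 genes for 1 mature protein. Per kilobase, Atp5g3 gave 91.0% ± 0.69 (SD, n = 4) of their sum in sham libraries and 90.5% ± 2.85 (SD, n = 3) in pMCAO libraries. Atp5g1 gave 6.59% ± 0.83 and 7.02% ± 1.34, and Atp5g2 gave 2.46% ± 0.73 and 2.43% ± 2.23. The makeup of the ring's messages thus differed by less than the spread between libraries. These shares depend on merged exon lengths, 4912 bases for Atp5g1 and 2181 for Atp5g3, whose transcript has 723 bases. In plain CPM the sham means were 82.0 for Atp5g3, 13.35 for Atp5g1 and 1.71 for Atp5g2, so other measures give other shares. Atp5g2 was the lowest member of complex V per kilobase in sham libraries (1.02 CPM per kilobase), at 1.16 to 2.51 CPM there and 0.09, 2.92 and 1.06 CPM in pMCAO 1 to pMCAO 3. A count of 3 in pMCAO 1 equals 0.256 CPM, so its value there lies below that floor, which covers counting error only. Atp5g1 has 10 near-identical loci, which makes its level uncertain. Atp5s (-0.12) and Atp5sl (-0.29) carry the Atp5 name and are not regarded as subunits; their groups overlapped.

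Subunits that the names leave out were looked at beside the members. Of 10 such genes 6 were listed, 4 of them lower and 2 higher, with a median of -0.26 (3 lower, 3 higher and 0.02 without pMCAO 3); edgeR, DESeq2 and limma-voom called 0, and 1 was lower at an unadjusted p under 0.05. Atpif1, the inhibitor that blocks ATP synthase running in reverse, stood at 90.3, 81.9, 60.5 and 73.3 CPM in sham and 56.7, 51.1 and 27.4 CPM in pMCAO libraries. Its groups did not overlap, and its log2 change was -0.76 (SE 0.25, adjusted p = 0.216 by edgeR). Cox4i1, the main isoform of a large complex IV subunit, had a log2 change of -0.44, with only pMCAO 3 (32.5 CPM) outside the sham range of 102.1 to 128.3 CPM. The log2 changes of Ndufab1, the acyl carrier protein of complex I, and Cycs, cytochrome c itself, were 0.05 and 0.31, and those of the small ATP synthase subunits Usmg5 and 2010107E04Rik were -0.10 and -0.41, all with overlap. Of the mitochondrially encoded subunits 12 were listed, 5 lower and 7 higher, with a median of 0.23 (3 lower, 9 higher and 0.32 without pMCAO 3). For them edgeR and DESeq2 called 0, and 2 were higher at an unadjusted p under 0.05, where 6.97% of all genes were. Quality weights called 6, all higher, in a fit that called 818 of all 17209 genes, 267 of them lower. Since 9 of the 12 have a near-identical locus elsewhere in the annotation, among them mt-Atp6, mt-Co3 and mt-Nd4l, which match theirs at 100.0% identity, these levels, counts and median are uncertain. Of the 3 without such a locus, mt-Cytb, mt-Nd1 and mt-Nd6, 0 were lower and 3 higher. Their median was 0.40 (0.58 without pMCAO 3), and edgeR called 0 of them.

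Factors that build or serve the chain gave smaller medians. Of 54 listed assembly factors 37 were lower and 17 higher and the median was -0.18 (34 lower and -0.06 without pMCAO 3). EdgeR and DESeq2 called 0 of them, and quality weights called Cox10, where 1.55% of all genes were called lower. At an unadjusted p under 0.05, 3 were lower (5.56%) and 1 higher, where 6.47% of all genes were lower and 6.97% higher. Assembly factors of complex V had the most negative median of the 5 groups (-0.36, 5 of 5 lower, and -0.21, 4 of 5 lower without pMCAO 3). Among regulators of mitochondrial biogenesis, the factors that drive these promoters and copy mitochondrial DNA, 9 of 16 were lower and the median was -0.04 (10 of 16 and -0.06 without pMCAO 3); edgeR, DESeq2 and limma-voom called 0, and 1 was lower at an unadjusted p under 0.05. There, Esrra, an orphan nuclear receptor that works with PGC-1 coactivators, differed by -0.88 without overlap (adjusted p = 0.349 by edgeR), Gabpa, the ETS subunit of GABP, by 0.24 and Yy1 by 0.20, both with overlap.

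Members of short exon length, merged over all annotated transcripts, had more negative changes than long ones. At or under the median exon length of 1756 bases, 39 of 39 members were lower with a median of -0.51, and above it 34 of 38 with a median of -0.27. Without pMCAO 3 these were 32 of 39 with a median of -0.26 and 27 of 38 with one of -0.09. Over all genes split at the same length the medians were -0.13 and 0.01. Across the 77 members the Spearman correlation of the log2 change with exon length was 0.47 and with GC content -0.37, and without pMCAO 3 it was 0.32 and -0.26. Across the 15966 genes of at least 1 CPM these were 0.18 and -0.41. Genes share the same libraries and are not independent, so these are descriptions only. In pMCAO 3 the deviation of all genes from their mean correlated at 0.24 with exon length and at -0.47 with GC content, and in Sham 4 it correlated at 0.44 with GC content.

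**Figure D4:**
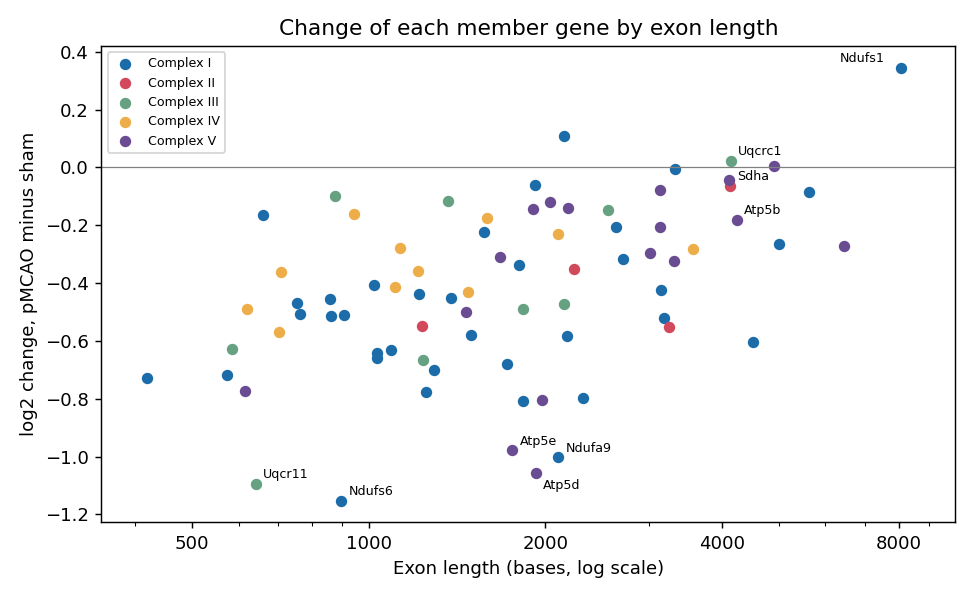
Each point is 1 member, with its exon length in bases on a log axis and its log2 change (pMCAO minus sham), coloured by complex. Short genes such as Uqcr11 and Ndufs6 lie at -1.09 and -1.15 and the longest, Ndufs1, is the highest point at 0.34.

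With offsets that level each library on GC content and on exon length, 65 of the 77 members were lower and the median was -0.28. The medians of complexes I to V were then -0.29, -0.26, -0.20, -0.15 and -0.23. With the offsets and without pMCAO 3 together, a setting added after the data were seen, 46 members were lower and 31 higher and the median was -0.12. Complex IV was then at 0.05, and complexes I, II, III and V at -0.13, -0.17, -0.06 and -0.12. Over the 7-library analysis and 21 other settings, 42 members had a negative change in every setting and 1, Ndufs1, a positive change in every setting. The share of all genes that kept 1 direction was not taken, so these counts have no background. The settings refit the same libraries and are not independent checks. The filter kept all 17209 genes, so the setting without it repeats the main fit. Ndufa9 ranged over those settings from -1.16 to -0.81, Ndufs6 from -1.55 to -0.69, Atp5d from -1.43 to -0.44 and Atp5e from -1.27 to -0.57. Cox6a1 ranged from -0.84 to 0.12 and Atp5b from -0.37 to 0.11.

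**Figure D5:**
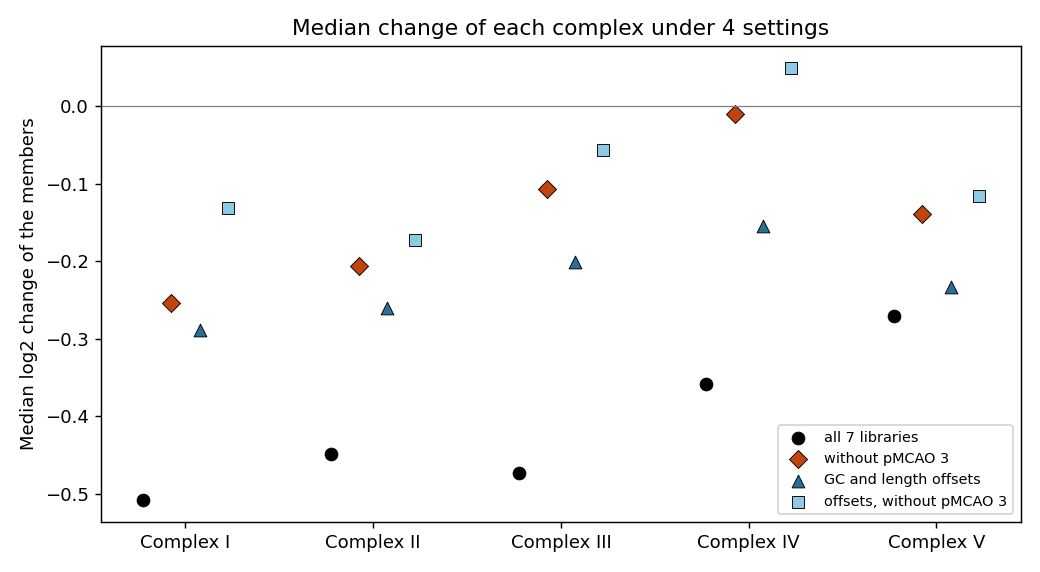
Points give the median log2 change (pMCAO minus sham) of the members of each complex with all 7 libraries, without pMCAO 3, with the offsets for base content and length, and with both changes. The medians with all libraries lie lowest in each complex, from -0.51 to -0.27, and complex IV reaches 0.05 with both.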

How the data were processed

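RNA-seq counts of 7 libraries, 4 sham and 3 pMCAO, were grouped by their titles. Read counts per gene came from the authors; the submitters' processing notes name STAR, featureCounts, limma and GRCm38 (mm10) and give no versions. Annotation release and strand setting are not known from the labels. Each listed gene was above 0.5 CPM in at least 4 of 7 libraries. The deposited CPM values equal the count over the library total to within 0.0005 and, like the log2 fold changes, mean log2 expression and p-values of the authors' deposited table, were not used. Per the labels' protocols, 2.0 ng of RNA entered each library and about 35 M paired reads of 100 bases were made, without molecular identifiers.

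All genes were fitted with edgeR 4.0.16 (R 4.3.3): TMM factors, expression filter by group (17209 genes kept), robust quasi-likelihood F test, two-sided, group as the only term, Benjamini-Hochberg adjustment, threshold 0.05. The biological coefficient of variation was 43.6%. The SE of a log2 change is its size over the square root of F. Medians, scores and counts over members carry no test. Counts of any complex or list at an unadjusted p under 0.05 stand beside 6.47% of all genes lower and 6.97% higher. Exon length, GC content and positions came from GENCODE M21 (GRCm38), which holds 99.5% of the identifiers. Near-identical loci were matches of at least 100 bases at 95% identity or more (BLAST+ 2.17.0). Of 77 members 23 had such a locus, and exons of 23 overlapped a gene on the other strand; their levels are uncertain.

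Genes were named by a rule: in each complex the 3 smallest p, the highest and lowest change and level per length, the core subunits, paired isoforms, and names whose place is uncertain. Ndufa7, Ndufa13, Ndufa10, Uqcrb, Atp5h, Atp5k, Atp5f1, Atp5j, Atp5j2 and the genes of other lists were chosen after their values were seen. Values of a member that the rule names are not reported here. Members and lists were chosen with earlier results of these data known. Alternatives were other scalings and filters, DESeq2 1.42.0, limma-voom (limma 3.58.1) with and without quality weights, a stromal marker covariate, GC and length offsets (mgcv 1.9.3), a replicate block, each library left out, and a threshold of 0.1.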

Additional observations from a re-analysis of the deposited data

Results flagged for a closer look

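In 4 of the 85 gene groups examined (4.71%), a single sham library lay far from the other 3 relative to the range of the group, where chance gives about 1 in 20. Ndufb3, an accessory subunit of complex I, was at 42.0 CPM in Sham 1 and at 17.1 to 20.1 CPM in the other sham libraries, and a processed pseudogene matches 282 bases of its transcript. Ndufc2, a membrane-arm subunit, was at 87.7 CPM in Sham 2 and at 58.8 to 63.4 CPM in the others. Ndufs1 was at 39.1 CPM in Sham 3 and at 47.5 to 49.2 CPM in the others, still below all 3 pMCAO libraries. Cox7a2l was at 46.5 CPM in Sham 1 and at 74.3 to 79.4 CPM in the others, so that pMCAO 1 (48.4 CPM) and pMCAO 2 (67.3 CPM) lay between Sham 1 and the rest.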

How the results depend on the processing

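With 4 and 3 libraries, 1 library decides much of what is described here. Leaving out each library in turn, the count of all genes called ran from 0 to 100 (0 without pMCAO 1, 100 without pMCAO 2, 7 without pMCAO 3, 47 without Sham 1 or Sham 2, 9 without Sham 4), beside 17 with all. The count of members called was 0 each time. The median of the members ran from -0.58 to -0.15, that of complex I from -0.65 to -0.25, II from -0.71 to -0.21, III from -0.76 to -0.11, IV from -0.59 to -0.0097 and V from -0.40 to -0.14; the value nearest 0 was that without pMCAO 3 for each. The count of all genes called was 34 with upper-quartile factors, 29 without scaling factors, 76 over genes of at least 5 CPM, 476 with DESeq2, 35 with limma-voom, 818 with quality weights, 0 with the stromal covariate, 5 with offsets and without pMCAO 3, and 98 at an adjusted p under 0.1. Members called were 5 with DESeq2, 6 with quality weights and 0 in the other settings. No scaling moved the median of all genes to -0.14, and those of the members to -0.56 and of complex II to -0.58. Limma-voom put complex II at -0.57. Quality weights put complex II at -0.23 and complex III at -0.10. With the stromal covariate complexes I to V were at -0.68, -0.67, -0.79, -0.55 and -0.44 and all members at -0.65. The stromal score did not overlap between groups, so that fit cannot tell it apart from pMCAO. With the offsets complexes I to IV were at -0.29, -0.26, -0.20 and -0.15 and all members at -0.28. With the offsets and without pMCAO 3, chosen after seeing the data, complexes I to V were at -0.13, -0.17, -0.057, 0.0498 and -0.12 and all members at -0.12. The causes of these shifts were not tested.

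Replicate numbers are shared by the groups, but same-numbered libraries did not deviate together (correlations across genes of -0.08, -0.01 and 0.10), and only pMCAO 3 correlated best with the sham library of its own number. With the replicate block 21 genes and 0 members were called and the median of the members was -0.51. With the offsets and the replicate block 17 genes and 0 members were called, and complex II was at -0.30.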

Other observations

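Other mitochondrial programs were read from lists beside the respiratory chain, in the same libraries. Proteins of the large mitochondrial ribosome subunit, which translate the mitochondrially encoded subunits, resembled the chain. Of 48 listed genes 36 were lower, with a median log2 change of -0.36 beside -0.02 for all genes (31 lower and -0.15 without pMCAO 3). EdgeR called 0, and 6 (12.5%) were lower at an unadjusted p under 0.05, where 6.47% of all genes were. DESeq2 called Mrpl28, where 1.24% of all genes were called lower. Their score was -0.08 to 0.19 in sham libraries and -0.27, -0.09 and -0.81 in pMCAO 1 to pMCAO 3. Mrpl28 had the smallest p, at 22.2 to 33.98 CPM in sham and 17.5, 10.7 and 9.36 CPM in pMCAO libraries, without overlap (log2 change -1.10, SE 0.30, adjusted p = 0.145 by edgeR).

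Citric acid cycle genes had a median of -0.19, with 11 of 17 lower (-0.06 and 11 of 17 without pMCAO 3). EdgeR, DESeq2 and limma-voom called 0 of them. At an unadjusted p under 0.05, 1 was lower (5.88%) and 1 higher, where 6.47% of all genes were lower and 6.97% higher. Of the 17, 1 was lower without overlap (5.88%, where 6.58% of all genes were) and 1 higher (where 5.99% were), near the shares over all genes. These were 2 subunits of succinyl-CoA ligase: Suclg1, the shared alpha subunit (-0.55, adjusted p = 0.331 by edgeR), and Suclg2, the GTP-specific beta subunit (0.51, adjusted p = 0.336 by edgeR). The groups of the other listed genes, among them Sucla2, overlapped. Among 13 coenzyme Q synthesis genes 6 were lower and 7 higher, with a median of 0.01 (6, 7 and 0.11 without pMCAO 3). EdgeR and DESeq2 called 0 of these, and quality weights called Adck4 (lower). At an unadjusted p under 0.05, 1 was lower (7.69%) and 2 higher, beside 6.47% and 6.97% of all genes. Among 8 listed carrier and uncoupling genes the median was -0.01 and the changes ran from -0.12 to 0.15, and without pMCAO 3 the median was 0.16. Of 5 listed genes tied to the hypoxic remodelling of the chain 4 were higher, with a median of 0.25 (5 and 0.42 without pMCAO 3). In these last lists edgeR, DESeq2 and limma-voom called 0 genes, and 0 had an unadjusted p under 0.05.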
